A study of Mus musculus with 5 samples.

Results

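The nuclear lamina and inner nuclear membrane genes followed here are Lmna, Lmnb1, Lmnb2, Lbr, Emd, Tmpo, Sun1, Sun2, Lemd3 and Banf1, taken by symbol from the deposited table. All 10 were found among its 17657 genes, and all 10 passed the filter on low counts. RNA was sequenced from cultured epidermal stem cells, the progenitors of the skin's keratinocytes, isolated from male C57BL/6 mice with the label 8 weeks and kept in the keratinocyte medium KGM2. The wild type group (WT) had 3 libraries. The Angptl4 knockout group (KO) had 2. Angptl4 encodes a secreted inhibitor of lipoprotein lipase, and which part of it the knockout removes is not stated in the labels. Values of single libraries are given throughout in the order WT1, WT2, WT3 and KO1, KO2. Whether libraries of a group came from separate cultures or animals is not labelled. The p-values therefore reflect the spread between libraries, which may be technical.

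The nuclear lamina is a mesh of intermediate filament proteins, the lamins, that lines the inner face of the nuclear envelope. A-type lamins come from Lmna and B-type lamins from Lmnb1 and Lmnb2. Proteins of the inner membrane bind the mesh to chromatin, and the SUN proteins reach across the envelope to the cytoskeleton. In keratinocytes this system carries mechanical load from the keratin and actin networks to the nucleus, and it is taken apart and rebuilt at each cell division. Lamin B1 is commonly low in senescent cells, and A-type lamins are abundant in stiff tissues.

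Libraries held 20283084 to 20773407 expected counts. Angptl4 was at 6.97, 5.76 and 4.13 CPM (read counts scaled to the library total and TMM factor) in the WT libraries and 0.832 and 1.06 CPM in the KO libraries. Its log2 change was -2.56 ± 0.32 (SE; adjusted p = 0.00458, edgeR), which did not pass where each group had its own spread (adjusted p = 0.127, limma-voom; 5.68e-09 to 0.127 over all alternatives). The 10 basal keratinocyte markers summed to 43296 to 44311 CPM in WT and to 56459 and 44265 CPM in KO. Of these markers 3 rose (Krt15, Itgb4 and Dst), 2 fell (Trp63 and Itga6) and 5 did not pass, against 20.4% of all tested genes in each direction. Krt15 was at a very low level, 0.0974, 0.146 and 0.499 CPM in the WT libraries and 2.67 and 1.44 CPM in the KO libraries. The biological coefficient of variation was 28.9% between the KO libraries and 5.21% within WT. In bulk RNA, fewer cells of a type and less RNA per cell cannot be told apart.

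Of the 10 genes, 6 fell in KO, 1 rose and 3 did not pass, where 40.8% of all tested genes passed in either direction. Lmnb1, Lbr, Lmnb2, Tmpo, Lemd3 and Banf1 fell, Sun2 rose, and Lmna, Emd and Sun1 did not pass. Among 12957 genes tested, 20.4% fell and 20.4% rose. The median log2 change of the 10 genes was -0.57, against 0.02 over all tested genes. KO and WT libraries did not overlap for 8 of the 10, 7 of them lower and 1 higher in KO, where 66.4% of all tested genes did not overlap. A fall of at least 2-fold that passed was found for 3 genes, against 5.12% of all tested genes. Without WT1, WT2 or WT3 the number that fell was 3, 4 and 4, and without KO1 or KO2 it was 7 and 7. The number that rose was 3 without KO2. Within WT the SD of each gene was 1.54 to 5.76% of its mean.

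**Figure D1:**
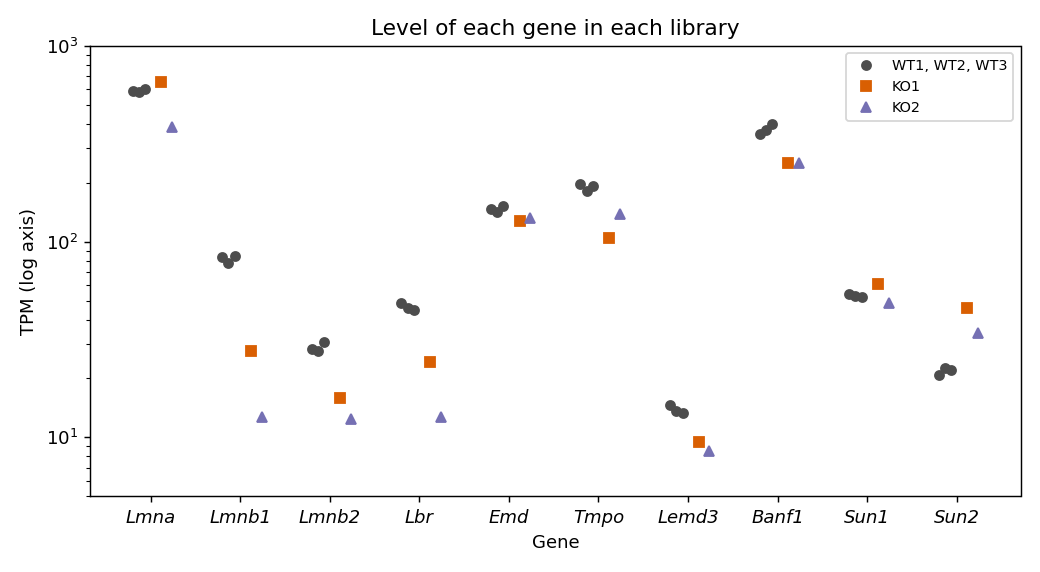
Level of each gene in each library, in TPM (transcript abundance divided by transcript length and scaled within each library) on a log axis; circles are the 3 WT libraries, the square KO1 and the triangle KO2. Lmnb1 stood at 77.8 to 84.7 TPM in WT and at 27.5 and 12.8 TPM in KO1 and KO2, while Lmna in KO1 and KO2 lay on either side of its WT values.

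The 3 lamin genes did not move alike. Lmna (NCBI gene 16905, GRCm38.p6 chromosome 3, 88481148 to 88509932) encodes lamins A and C. It was at 734, 727 and 749 CPM in the WT libraries and 868 and 521 CPM in the KO libraries. KO1 lay above every WT library and KO2 below every one, at 118 and 70.7% of the WT mean. The log2 change was -0.09 ± 0.22 (adjusted p = 0.777, edgeR). With KO1 left out it was -0.51 (adjusted p = 0.000139) and with KO2 left out 0.25 (adjusted p = 0.0042; 0.000139 to 0.865 over all alternatives). So the sign of the Lmna difference depended on which KO library was used.

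Lmnb1 (NCBI gene 16906, chromosome 18, 56707813 to 56753424), which encodes lamin B1, had the largest fall of the 10. It was at 119, 111 and 121 CPM in the WT libraries and 39.9 and 18.5 CPM in the KO libraries. Both KO libraries lay far below every WT library, at 34.1 and 15.8% of the WT mean. It fell by 2.0 ± 0.33 on the log2 scale, 4.01-fold (adjusted p = 0.00866, edgeR), and 1.34% of tested genes had a lower log2 change. The log2 change was -2.67 without KO1 and -1.54 without KO2, and the call held in all 16 alternatives run on it.

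Lmnb2 (NCBI gene 16907, chromosome 10, 80901363 to 80918490), the gene of lamin B2, was at 48.1, 47.0 and 51.8 CPM in the WT libraries and 27.5 and 21.2 CPM in the KO libraries. Both KO libraries lay below all WT libraries, KO2 the lower. Lmnb2 fell by 1.01 ± 0.13 on the log2 scale, 2.01-fold (adjusted p = 0.00516, edgeR), and its call also held in all 16 alternatives run. The B-type lamins thus both passed, with a smaller change for Lmnb2 than for Lmnb1 in each KO library (56.2 and 43.2% of the WT mean). The difference between them was not tested.

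**Figure D2:**
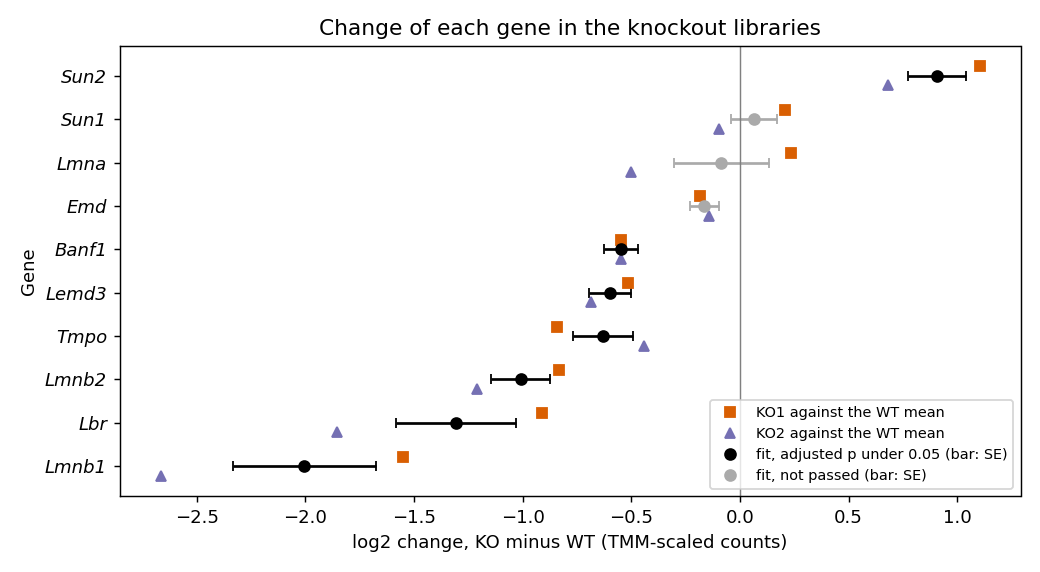
log2 change of each gene, KO minus WT, on TMM-scaled counts; circles with bars are the fitted change and its SE (black where adjusted p was under 0.05, grey where not), and the square and triangle are KO1 and KO2 each set against the WT mean. The changes run from -2.0 for Lmnb1 to 0.91 for Sun2, and KO1 and KO2 fall on opposite sides of 0 for Lmna and Sun1.

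Lbr (NCBI gene 98386, chromosome 1, 181813458 to 181842401) encodes the lamin B receptor, a protein of the inner membrane that tethers heterochromatin and also has a sterol reductase domain. It was at 87.1, 81.7 and 80.8 CPM in the WT libraries and 44.2 and 23.0 CPM in the KO libraries. Like Lmnb1 it was lower in KO2 than in KO1, and neither overlapped WT. Lbr fell by 1.31 ± 0.28 on the log2 scale, 2.47-fold (adjusted p = 0.0173, edgeR). Leaving out WT1, WT2 or WT3 ended the call (adjusted p = 0.0702, 0.0631 and 0.0638; 1.6e-06 to 0.0702 over all alternatives). Its deposited interval shares 1475 bases with Dnah14, which was at 0.0483 to 0.195 CPM. RefSeq starts Lbr at 181815315 and shows no overlapping gene.

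The LEM-domain genes Tmpo, Lemd3 and Emd encode nuclear proteins that bind chromatin through BAF, the product of Banf1. The value of Tmpo covers its 16 listed transcripts together, so forms within and outside the membrane are not separated. Tmpo (NCBI gene 21917, chromosome 10, 91145188 to 91181930) encodes the LAP2 proteins, and was at 359, 331 and 352 CPM in the WT libraries and 194 and 256 CPM in the KO libraries. Here KO1 was the lower KO library, the reverse of Lmnb1 and Lbr. Tmpo fell by 0.63 ± 0.14 on the log2 scale (adjusted p = 0.019, edgeR). Without WT1, WT2 or WT3 its call was lost (adjusted p = 0.0819, 0.065 and 0.0766; 3.23e-05 to 0.102 over all alternatives).

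Lemd3 (NCBI gene 380664, chromosome 10, 120923411 to 120979330), whose product MAN1 also restrains SMAD signalling, was at 35.1, 32.8 and 31.9 CPM in the WT libraries and 23.3 and 20.7 CPM in the KO libraries. The KO libraries lay close together and below WT. Its locus shares 11550 bases with the lncRNA Gm50589 and 860 with the pseudogene Gm16166, counted from gene start to gene end. Overlap of exons was not examined, so whether counted reads of Lemd3 were shared is not known. The gene fell by 0.60 ± 0.10 on the log2 scale (adjusted p = 0.00848, edgeR), narrowly missing the threshold without WT1 (adjusted p = 0.0509; 8.4e-05 to 0.0643 over all alternatives). Emd (NCBI gene 13726, chromosome X, 74254674 to 74261563), the gene of emerin, was at 115, 110 and 118 CPM in the WT libraries and 101 and 104 CPM in the KO libraries. Both KO libraries were below WT, by a small margin. The log2 change of -0.16 ± 0.07 did not pass (adjusted p = 0.111, edgeR), though it did without KO2 (adjusted p = 0.0365; 0.0365 to 0.515 over all alternatives).

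Banf1 (NCBI gene 23825, chromosome 19, 5364633 to 5366876) encodes BAF, a small DNA-binding protein that links LEM-domain proteins to chromatin when the envelope reforms. It was at 141, 146 and 157 CPM in WT1, WT2 and WT3 and at 101 CPM in each KO library. No other of the 10 genes had KO libraries this close, both at 68.4% of the WT mean. Banf1 fell by 0.55 ± 0.08 on the log2 scale (adjusted p = 0.00614, edgeR; 4.4e-07 to 0.078 over all alternatives). Its expected counts, like those of Emd, were not whole in any of the 5 libraries, so part of the reads of both were divided by probability among several places. Banf1 also shares 64 bases with Eif1ad on the other strand, which was at 66.7 to 71.2 CPM in WT and 36.7 and 62.3 CPM in the KO libraries. The strand setting is not given, so reads from those bases cannot be told apart.

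The SUN-domain genes encode the inner membrane side of the LINC complex, the bridge from lamina to cytoskeleton. Sun2 (NCBI gene 223697, chromosome 15, 79724068 to 79757395) was at 39.9, 42.8 and 41.8 CPM in the WT libraries and 89.1 and 66.5 CPM in the KO libraries. Both KO libraries lay above every WT library. Sun2 rose by 0.91 ± 0.13 on the log2 scale, 1.87-fold (adjusted p = 0.00663, edgeR), and the call held in all 16 alternatives run. Its deposited interval shares 14697 bases with the lncRNA Gm16576, and the deposited strand is that of Gm16576 (plus). RefSeq places Sun2 on the minus strand, ends it at 79742536 and shows no overlapping gene. Which gene gave the reads from the shared bases was not examined.

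Sun1 (NCBI gene 77053, chromosome 5, 139200564 to 139249839) was at 111, 107 and 107 CPM in the WT libraries and 125 and 101 CPM in the KO libraries. As with Lmna, KO1 lay above the WT libraries and KO2 below them. Its log2 change was 0.06 ± 0.11 (adjusted p = 0.654, edgeR). It was 0.22 without KO2 (adjusted p = 0.00791) and -0.11 without KO1 (adjusted p = 0.123; 0.00791 to 0.842 over all alternatives).

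Levels of different genes were compared in TPM. In WT, Lmna was the highest at 591 ± 10.1 TPM (SD, n = 3), followed by Banf1 at 376 ± 21.0, Tmpo at 190 ± 7.64, Emd at 147 ± 5.21 and Lmnb1 at 81.9 ± 3.66. Below these came Sun1 at 53.0 ± 1.05, Lbr at 46.4 ± 1.87, Lmnb2 at 28.9 ± 1.47, Sun2 at 21.8 ± 0.87 and Lemd3 at 13.8 ± 0.70 TPM (SD, n = 3). No neighbours in this WT order overlapped in their 3 libraries. In KO, Lmna was at 519 ± 188 TPM (SD, n = 2), Banf1 at 253 ± 1.68, Emd at 130 ± 3.42 and Tmpo at 121 ± 24.1. Next were Sun1 at 54.9 ± 8.59, Sun2 at 40.0 ± 8.26, Lmnb1 at 20.1 ± 10.4, Lbr at 18.5 ± 8.20, Lmnb2 at 14.2 ± 2.53 and Lemd3 at 9.01 ± 0.72 TPM (SD, n = 2). Emd and Tmpo overlapped in KO, as did Lmnb1, Lbr and Lmnb2. Sun2 stood ninth in WT, under Lmnb1, Lbr and Lmnb2, and sixth in KO, above them.

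The balance of A-type to B-type lamin transcripts was followed as the TPM of Lmna over that of Lmnb1 plus Lmnb2. It was 5.28, 5.51 and 5.22 in the WT libraries and 15.0 and 15.4 in the KO libraries. The ratio was nearly the same in both KO libraries, although Lmna was 1.67-fold and Lmnb1 2.16-fold higher in KO1 than in KO2. On the log2 scale it averaged 2.42 ± 0.04 (SD, n = 3) in WT and 3.92 ± 0.02 (SD, n = 2) in KO, a difference of 1.51. No test was run on this ratio. An exact permutation test of a single value over 3 and 2 libraries has 10 arrangements and allows no one-sided p under 0.1. Lmnb1 over Lmnb2 was 2.95, 2.80 and 2.77 in the WT libraries and 1.72 and 1.03 in the KO libraries. The 2 B-type transcripts were thus at nearly equal levels in KO2. Sun2 over Sun1 was 0.384, 0.428 and 0.421 in the WT libraries and 0.753 and 0.701 in the KO libraries. The Lmnb1 to Lmnb2 and Sun2 to Sun1 ratios were chosen after the values were seen.

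**Figure D3:**
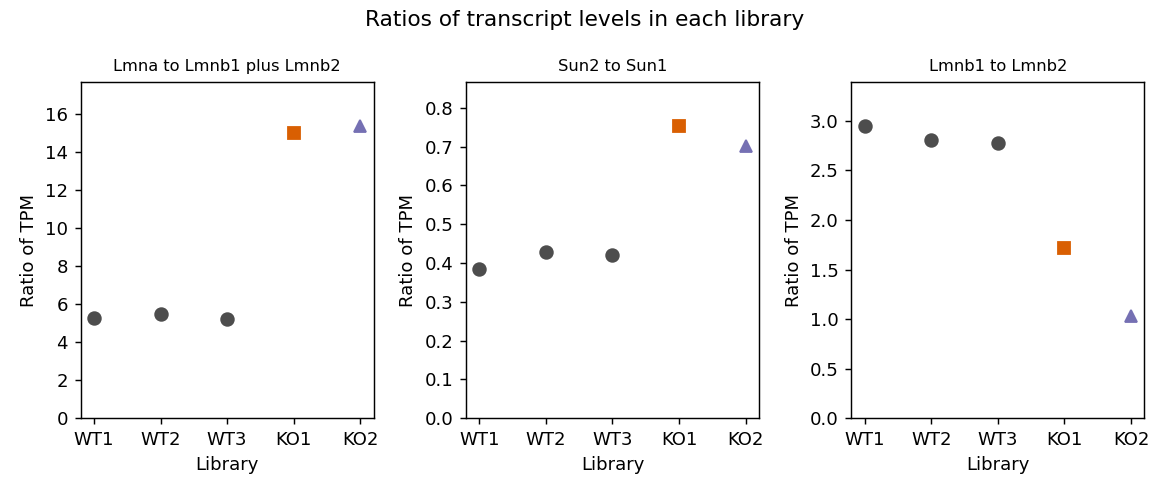
Ratios of TPM in each library, with axes starting at 0: Lmna over Lmnb1 plus Lmnb2 (left), Sun2 over Sun1 (middle) and Lmnb1 over Lmnb2 (right). In each panel the KO libraries stand apart from the WT libraries, with lamin A to B ratios of 15.0 and 15.4 against 5.22 to 5.51.

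Across the 5 libraries, the genes nearest to Lmnb1 were Anln, Aunip and Mad2l1, at distances of 0.08, 0.09 and 0.12 in log2 CPM centred on each gene's WT mean. They were taken from 11284 genes. Anln was at 242 to 258 CPM in WT and 90.4 and 39.7 CPM in KO1 and KO2. Nearest to Lmna were Mmab, Sfn and Casp6, at distances of 0.06, 0.07 and 0.07. Sfn, which encodes the keratinocyte protein stratifin, was at 4048 to 4164 CPM in WT and 4819 and 3001 CPM in KO1 and KO2. These likenesses are descriptions over 5 libraries that share 1 contrast.

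The sequence before the start site is shown for Lbr and Tmpo, which fell, and Sun2, which rose. Each had a start with a CHR match and another element in the 200 bases before it. Each run is the 200 bases before a RefSeq start (GRCm38.p6, minus strand): chr1:181842402-181842601 for Lbr, chr10:91171620-91171819 and chr10:91170551-91170750 for the upstream and downstream of the 2 starts listed for Tmpo, both inside the deposited interval of the gene, and chr15:79742537-79742736 for Sun2. The Sun2 run also lies inside the deposited interval of its gene, beyond the RefSeq end at 79742536. Capitals mark the CCAAT box, the CHR element of cell cycle promoters (TTTGAA or TTCGAA) and E2F sites (TTTCCCGC, TTTGGCGC, TTTCGCGC or TTTGGCGG), on either strand.
Lbr: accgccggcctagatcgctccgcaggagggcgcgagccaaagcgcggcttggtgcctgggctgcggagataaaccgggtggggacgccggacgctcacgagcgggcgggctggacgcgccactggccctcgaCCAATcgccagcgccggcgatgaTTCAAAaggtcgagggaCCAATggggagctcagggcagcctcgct
Tmpo upstream start: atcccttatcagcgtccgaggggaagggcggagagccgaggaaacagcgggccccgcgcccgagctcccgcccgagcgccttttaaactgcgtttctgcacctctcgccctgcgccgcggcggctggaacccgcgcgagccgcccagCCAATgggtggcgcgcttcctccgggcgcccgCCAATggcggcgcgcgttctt
Tmpo downstream start: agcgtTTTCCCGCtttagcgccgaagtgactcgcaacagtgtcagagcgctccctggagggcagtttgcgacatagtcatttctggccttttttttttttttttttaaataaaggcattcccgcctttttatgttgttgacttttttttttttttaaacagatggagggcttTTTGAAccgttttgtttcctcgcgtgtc
Sun2: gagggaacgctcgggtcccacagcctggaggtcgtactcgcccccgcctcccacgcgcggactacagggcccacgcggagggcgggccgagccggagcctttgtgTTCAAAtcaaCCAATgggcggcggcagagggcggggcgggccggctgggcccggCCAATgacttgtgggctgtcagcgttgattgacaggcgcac
In Lbr a CHR match began at position -45, counted back from the start, between CCAAT boxes at -68 and -28. Sun2 had a CHR match at -95 followed by CCAAT boxes at -85 and -41, a different order from that in Lbr. Tmpo had CCAAT boxes at -53 and -21 of its upstream start, and an E2F match at -195 and a CHR match at -28 of its downstream start. The promoter of Banf1, not shown, had a CCAAT box at -185 and an E2F match at -81. CCAAT matches also lay in promoters of Lmna, Sun1 and Emd, which did not pass, and of Lemd3, which fell. Of 14 promoters listed for 9 of the genes (300 bases each, 50 of them after the start), 9 held CCAAT, 3 CHR and 2 E2F, against 37.4, 19.2 and 2.37% of all 32851 promoters. No promoter was listed for Lmnb1, which had the largest fall, and Lmnb2 had no match to any of these elements. A match is a description of the letters, and binding was not measured.

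Other nuclear envelope genes were followed in 5 lists of 63 genes in all, of which 57 were tested. Of these 24 fell, 7 rose and 26 did not pass, against 20.4% of all tested genes in each direction, and the median log2 change was -0.19. Without WT1, WT2 or WT3 the number that fell was 12, 12 and 11, and the number that rose 3, 3 and 4. Without KO1 or KO2, 32 and 28 fell and 12 and 11 rose.

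Among 7 tested genes of the LINC complex and its anchorage, 3 fell and 2 rose, where 20.4% of all tested genes passed in each direction. The giant nesprins Syne1 and Syne2, which bind SUN proteins from the outer membrane, were the 2 that rose, and Syne3, Tor1b and Tor1aip1 fell. Syne1 was at 11.9, 10.9 and 13.4 CPM in the WT libraries and 23.3 and 39.4 CPM in the KO libraries (log2 change 1.38 ± 0.24, adjusted p = 0.00973, edgeR). Syne2 was at 82.1 to 91.3 CPM in WT and 138 and 217 CPM in the KO libraries (log2 change 1.02). Both were higher in KO2 than in KO1, the reverse of Sun2. Syne3, nesprin-3, which connects to intermediate filaments through plectin, fell by 0.97 on the log2 scale from a low level of 3.54 CPM in WT. Calls were lost for Syne2 and Syne3 without any 1 of the WT libraries (highest adjusted p = 0.0595 and 0.109; over all alternatives 3e-06 to 0.0595 and 0.00453 to 0.19), and for Syne1 without WT1 or WT2 (adjusted p = 0.0533 and 0.0502; 5.57e-06 to 0.0533 over all alternatives). The list's falls numbered 0, 0 and 0 without WT1, WT2 or WT3, and its rises 0, 0 and 1. Falls numbered 1 with no count filter or the stricter one and 0 with a separate spread per group.

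Lamin processing covers the farnesylation, cleavage and methylation that mature prelamin A and the B-type lamins. Of 7 tested genes 2 fell, 1 rose and 4 did not pass, which is near the 20.4% of all tested genes that passed in each direction. Zmpste24, the protease that cleaves prelamin A, was at 104, 94.5 and 98.9 CPM in the WT libraries and 75.9 and 78.3 CPM in the KO libraries. It fell by 0.36 on the log2 scale. Fnta, the alpha subunit of farnesyltransferase, fell by 0.43, and Narf, which binds prenylated prelamin A, rose by 0.86 from 12.4 to 22.6 CPM. Zmpste24 did not pass without WT1, WT2 or WT3, Fnta without WT1 or WT3, and Narf without WT2 or WT3 (highest adjusted p = 0.0756, 0.0623 and 0.0611; over all alternatives 0.000838 to 0.142, 0.000377 to 0.12 and 0.000268 to 0.0611). The list's falls numbered 0, 1 and 0 and its rises 1, 0 and 0 without WT1, WT2 or WT3, against 3 and 4 falls and 3 and 1 rises without KO1 or KO2. With a separate spread per group 1 gene fell.

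Of 13 tested genes for other inner membrane and LEM-domain proteins 4 fell, 3 rose and 6 did not pass, again near the 20.4% of all tested genes in each direction. Tmem43, which encodes LUMA, an inner membrane protein that binds emerin and lamins, was at 143, 135 and 142 CPM in the WT libraries and 333 and 244 CPM in the KO libraries (log2 change 1.04 ± 0.14, adjusted p = 0.00547, edgeR). Like Sun2 it was higher in KO1 than in KO2. Prr14, a tether of heterochromatin to the lamina, rose by 0.67 from 58.8 to 93.4 CPM, and Tmem120a fell by 0.49 from 57.7 to 41.1 CPM. These 3 calls held with each library left out. The others that passed were Lemd2, which rose, and Ankle1, Tmem201 and Dpy19l1, which fell. The list's 4 falls became 2, 1 and 1 without WT1, WT2 or WT3 and 6 without KO1, and its 3 rises became 5 without KO1 and 2 without WT1. With a separate spread per group 1 gene fell.

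Of 17 tested genes of envelope breakdown and resealing 8 fell, 0 rose and 9 did not pass, against 20.4% of all tested genes in each direction. Rcc1, the exchange factor that charges the GTPase Ran on chromatin, was at 107, 115 and 121 CPM in the WT libraries and 56.5 and 56.2 CPM in the KO libraries. It fell by 1.02 ± 0.08 on the log2 scale (adjusted p = 0.00217, edgeR). Ran itself fell by 0.81, from 580 to 332 CPM. Vrk1, the kinase that releases BAF from DNA, fell by 1.53, from 35.1 to 12.2 CPM. These 3 calls held with each library left out. The list's 8 falls became 4, 4 and 4 without WT1, WT2 or WT3, and 1 and 2 of its genes rose without KO1 or KO2.

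Of 13 lamina-bound chromatin partners 7 fell, 1 rose and 5 did not pass, against 20.4% of all tested genes in each direction. Cbx3, which encodes the heterochromatin protein HP1 gamma, fell by 0.89 ± 0.07 on the log2 scale (118, 112 and 121 CPM in the WT libraries and 64.0 and 62.5 CPM in the KO libraries; adjusted p = 0.00213, edgeR). Hmgb2, a chromatin-bending protein, fell by 2.06, from 134 to 32.0 CPM. Suv39h2, a histone H3 lysine methyltransferase, fell by 1.73, from 12.7 to 3.82 CPM. The calls of these 3 genes held with each library left out, while the 1 rise, of Zbtb7b, did not pass without WT1, WT2 or WT3, with library totals, limma-voom, no count filter, a separate spread per group or any of the fits on TPM. Without KO2, 2 genes rose.

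**Figure D4:**
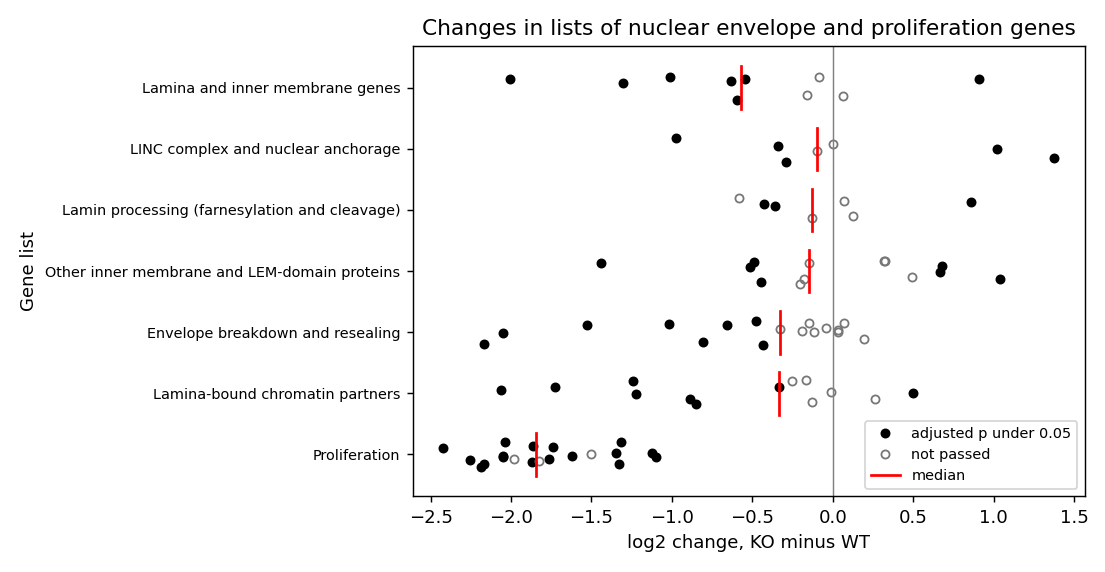
log2 change, KO minus WT, of each tested gene in the 10 lamina and inner membrane genes, the 5 further lists of nuclear envelope genes and a list of proliferation genes; filled points passed at an adjusted p under 0.05, open points did not, and red lines are medians. The median is -0.57 for the 10 genes and -1.84 for the proliferation list.

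Markers of proliferation moved in the same samples. Of 20 proliferation genes 17 fell, 0 rose and 3 did not pass (median log2 change -1.84), against 20.4% of all tested genes in each direction. Cdk1 and Ccnb1 are also in the breakdown list. The replication genes Mcm7, Mcm2 and Pcna fell by 1.12, 1.32 and 1.33 on the log2 scale, and Mcm7 was at 154, 148 and 161 CPM in the WT libraries and 73.7 and 67.8 CPM in the KO libraries. The list's summed level was 3048 to 3301 CPM in WT, 1264 CPM in KO1 and 622 CPM in KO2, so KO2 was the lower. KO2 was also below KO1 for Lmnb1, Lbr, Lmnb2 and Lemd3, which fell, Sun2, which rose, and Lmna and Sun1, which did not pass. Tmpo and Emd were lower in KO1, and Banf1 was at 101 CPM in both. The 17 falls became 10, 10 and 10 without WT1, WT2 or WT3. The list's part in the changes of the lamina genes was not tested.

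Markers of other cell types were also unequal between the groups. Their counts stand beside the 20.4% of all tested genes that rose and the 20.4% that fell. Of 5 tested pericyte and smooth muscle markers 4 rose and 0 fell, and the whole list of 8 summed to 264 to 295 CPM in WT and to 1870 and 705 CPM in KO. Most of that sum was Acta2, at 230 to 262 CPM in WT and 1746 and 581 CPM in KO. Rgs5, Myh11 and Des were below the filter. Of 9 tested fibroblast markers 3 rose and 0 fell, and their list of 10 summed to 467 to 480 CPM in WT and to 764 and 373 CPM in KO. Fbln2, which did not pass, made up most of it, at 383 to 403 CPM in WT and 566 and 275 CPM in KO. The 3 that rose, Col1a1, Dcn and Postn, had low WT means of 1.07, 0.178 and 0.0969 CPM. Both KO libraries lay above WT for each of them. The lists for melanocytes (6 genes), immune cells (7 in the table) and endothelium (5) summed to at most 7.62, 45.1 and 5.41 CPM in any library. Of their tested genes 0 of 5, 1 of 2 and 0 of 2 rose, and 1 endothelial marker fell. Cd3e and Emcn were at 0 in the WT libraries, and no marker was at 0 in all 5 libraries. The 4 pericyte and smooth muscle markers that rose were Acta2, Cspg4, Notch3 and Pdgfrb, and the part of such cells in the rise of Sun2 or the levels of Lmna was not tested.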

How the data were processed

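The authors deposited 1 table of 17657 genes with expected counts, TPM and FPKM for 5 libraries. Per the submitters' processing notes, expected counts were made with RSEM 1.3.1 on GRCm38.p6. No source used here states the aligner or whether counting used strand. The deposited TPM values are scaled by transcript length and library. FPKM was not used, and 0 columns belonged to other samples. RSEM splits reads that match several places, so genes with close copies share reads.

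After rounding the expected counts, KO was tested against WT with edgeR 4.0.16 (R 4.3.3): filterByExpr, TMM factors (0.988 to 1.02), the two-sided quasi-likelihood test, and Benjamini-Hochberg adjustment over 12957 genes with a threshold of 0.05. On simulated counts with equal spread in both groups the share of false calls stayed under the threshold. With the larger KO spread it was above it, so calls here may include more false ones than the threshold states. The simulation changed far fewer genes than passed here, so the share of false calls here is not known. SEs were derived from the test statistic. The lowest count of any of the 10 genes was 382, for Lmnb1 in KO2. Between WT libraries, chi-square over degrees of freedom was 3.41 to 6.35, and between KO libraries 107, so no library was a copy.

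Named are all 10 genes, the 3 with the smallest p of each further list, and the 3 nearest to Lmnb1 and to Lmna (Euclidean distance of log2(CPM + 0.5), genes of average log2 CPM of at least 1). Members and lists were chosen with earlier results of these data known. Coordinates are the deposited table's. Its strand differed from RefSeq's for 4 of the 10 genes, and promoters follow the RefSeq table of GRCm38.p6. No promoter stretch that lies in an annotated UTR (GENCODE vM21) is printed, and protein sequences were not used here. Alternatives were DESeq2 1.42.0 and its size factors, library totals, limma 3.58.1 (voom, voom with a spread per group, log2(TPM + 1), log2(TPM + 0.1), mean TPM of at least 1), a block for the replicate number, each library left out, and either no filter or a mean of 50 counts or more. Genes named outside that rule were chosen after their values were seen.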

Additional observations from a re-analysis of the deposited data

How the results depend on the processing

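The 6 falls and 1 rise among the 10 genes were the counts found under DESeq2, DESeq2's size factors, library totals, both voom fits, both other count filters and the 3 fits on TPM. With 1 library left out, 3 to 7 of the genes fell and 1 to 3 rose. Over all tested genes, 977 to 4093 fell and 980 to 3975 rose with 1 library left out, and 1567 fell and 1625 rose with a separate spread per group. For the 5 envelope lists 11 to 32 fell and 3 to 12 rose with 1 library left out, and 15 fell with a separate spread. For the proliferation list 10 to 20 fell. Log2 changes with 1 library left out ranged from -0.51 to 0.25 for Lmna, -1.86 to -0.90 for Lbr, -0.19 to -0.14 for Emd, -0.83 to -0.45 for Tmpo, -0.11 to 0.22 for Sun1 and -0.69 to -0.51 for Lemd3. Leaving out a library leaves fewer samples, and a lone KO library is assumed to vary like WT. The lamin A to B difference was 1.55 from CPM in place of TPM. WT1 with KO1 and WT2 with KO2 share a replicate number, and the labels do not say whether it marks a pairing. Their deviations from the group means correlated at 0.00714 and 0.0676, over 2 pairs. With 2 KO libraries the deviations of KO1 and KO2 mirror each other, so these values cannot show whether the numbers mark pairs. WT3 has no KO library of its number, and the block leaves few degrees of freedom. With the replicate block 3 of the 10 genes fell, as did 794 of all genes, while 804 rose. In the envelope lists 10 fell and 4 rose with the block. The log2 changes of Tmpo, Lemd3 and Banf1 were -0.63, -0.63 and -0.50 with the block and did not pass (adjusted p = 0.102, 0.0643 and 0.078; over all alternatives 3.23e-05 to 0.102, 8.4e-05 to 0.0643 and 4.4e-07 to 0.078, edgeR). Calls were also lost with the block for Ran and Tmem120a (adjusted p = 0.0596 and 0.0801; over all alternatives 1.17e-15 to 0.0596 and 1.96e-06 to 0.0801, edgeR) and for Fnta, Narf, Syne2, Syne3 and Zmpste24. The cause of these differences was not tested.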

Other observations

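Some envelope genes outside the naming rule were looked at after their values were seen. Lemd2, whose LEM-domain product recruits the membrane sealing machinery to the reforming nucleus, was at 49.9, 53.9 and 54.3 CPM in the WT libraries and 75.2 and 93.2 CPM in the KO libraries. It rose by 0.68 on the log2 scale (adjusted p = 0.00836, edgeR), while Lemd3, of the same domain family, fell. Its partner Chmp7 was at 32.8 to 34.9 CPM in WT and 36.2 and 34.99 CPM in the KO libraries, a log2 change of 0.07 that did not pass (adjusted p = 0.49, edgeR). The HP1 genes Cbx5 and Cbx1 fell by 1.22 and 0.33 on the log2 scale. Cbx5, which encodes the HP1 alpha protein that binds the lamin B receptor, was at 94.0 to 102 CPM in WT and 50.1 and 34.2 CPM in the KO libraries, and like Lbr it was lower in KO2. Lpin1, a phosphatidate phosphatase that acts on membrane lipid supply, was at 65.5 and 18.5 CPM in the KO libraries, on either side of its 28.2 to 30.8 CPM in WT.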
